A study of Mus musculus with 34 samples.

Results

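The transcription factors of other lineages are 41 genes, listed by name, whose products direct cell types that muscle is not: blood, endoderm, the nervous system, kidney and thyroid, heart and limb, and pluripotent cells. Each locus was taken as the 1 kb bins that overlap the gene span with 5 kb on either side on GRCm38. All 41 were found among 21631 protein-coding genes of the autosomes and X, and they cover 1382 of 2631630 bins, with 13 to 197 bins each. By lineage they fall into 6 blood, 7 endoderm, 16 neural, 3 kidney and thyroid, 7 heart, limb and mesenchyme, and 2 pluripotent factors. Of the 41 loci, 9 share 48 bins with a coding neighbour.

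The cells were C2C12, an immortal mouse line of muscle precursors, in which multi-target chromatin integration labelling recorded where antibodies to chromatin targets sit. A DNA probe on the antibody is placed into neighbouring DNA by Tn5 transposase, and what flanks it is transcribed and sequenced. H3K4me3 was stained together with CTCF in 10000 and in 1000 cells, and H3K27ac together with Pol2S2P, the elongating RNA polymerase II with phosphorylated serine 2, in 1000 and in 100 cells, with 3 libraries in each of these 8 groups (n = 3). CTCF alone in 10000 cells and Pol2S2P alone in 1000 cells were stained in 2 libraries each (n = 2). All 28 libraries come from the same line, no library without a target was among them, and nothing states that replicates were separate cultures. The p-values therefore measure the spread between libraries, possibly a technical spread only. Library totals ran from 719766 counts for H3K4me3 in 1000 cells to 6653298 for CTCF stained alone. Levels are counts per bin divided by the mean count per bin of that library (times the genome mean), which makes genes of different length comparable. As a check of the cell type, 7 myoblast markers had median levels of 4.52 for H3K4me3 and 3.08 for H3K27ac, against 0.61 and 0.678 for 5 neuron markers and 0.84 and 0.486 for 4 pluripotent markers. Lists of fibroblast, blood, hepatocyte and housekeeping genes were also set and are not given here, so the check does not set myoblasts against fibroblasts.

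Genes that fix the fate of a lineage are commonly kept silent elsewhere by Polycomb proteins, which mark them with H3K27me3, a mark not analysed here. Their starts are often rich in CpG dinucleotides, which in most genes of a cell carry H3K4me3, a mark of active or poised starts laid down by the SET1 and MLL methyltransferases. H3K27ac marks active enhancers and starts, Pol2S2P marks polymerase that is elongating through a gene, and CTCF is a zinc-finger protein that binds its own DNA motif and anchors chromatin loops in most cell types. In muscle precursors, factors such as Myod1 and Myf5 take the part that the 41 genes play in their own lineages.

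The sequences around the starts of 5 members are given because they span the patterns described below. Nkx2-5 and Gata3 carried the strongest H3K4me3, and Isl1 and Hand2 had nearly none or none at starts with many CpG. Nanog had the most CTCF over its whole locus. At the starts themselves, Gata3 and Nkx2-5 had more CTCF than Nanog. Each sequence runs 5′ to 3′ on the strand of the gene, from 250 bases before the start to 50 after it. The sequences come from RefSeq on GRCm38.p6, with every CpG in capitals.
Nkx2-5, chr17:26841516-26841815, minus strand, 9 CpG: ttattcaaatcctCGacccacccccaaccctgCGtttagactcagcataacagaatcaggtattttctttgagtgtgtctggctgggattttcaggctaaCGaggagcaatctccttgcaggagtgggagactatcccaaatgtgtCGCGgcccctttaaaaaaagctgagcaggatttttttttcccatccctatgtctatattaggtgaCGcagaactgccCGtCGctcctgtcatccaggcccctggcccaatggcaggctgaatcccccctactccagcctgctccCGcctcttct
Gata3, chr2:9878551-9878850, minus strand, 22 CpG: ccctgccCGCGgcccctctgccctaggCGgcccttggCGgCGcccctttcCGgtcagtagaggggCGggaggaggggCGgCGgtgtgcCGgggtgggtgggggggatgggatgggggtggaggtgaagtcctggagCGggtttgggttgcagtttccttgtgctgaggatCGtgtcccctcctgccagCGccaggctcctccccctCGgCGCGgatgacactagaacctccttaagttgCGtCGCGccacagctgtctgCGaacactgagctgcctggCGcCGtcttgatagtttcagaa
Isl1, chr13:116309639-116309938, minus strand, 37 CpG: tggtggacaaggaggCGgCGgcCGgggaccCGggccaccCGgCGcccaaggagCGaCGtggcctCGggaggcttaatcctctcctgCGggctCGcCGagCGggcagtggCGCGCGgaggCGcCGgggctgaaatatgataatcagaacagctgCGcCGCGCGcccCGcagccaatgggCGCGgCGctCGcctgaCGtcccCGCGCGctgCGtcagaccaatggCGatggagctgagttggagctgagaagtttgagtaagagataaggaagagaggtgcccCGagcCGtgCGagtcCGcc
Hand2, chr8:57320733-57321032, plus strand, 17 CpG: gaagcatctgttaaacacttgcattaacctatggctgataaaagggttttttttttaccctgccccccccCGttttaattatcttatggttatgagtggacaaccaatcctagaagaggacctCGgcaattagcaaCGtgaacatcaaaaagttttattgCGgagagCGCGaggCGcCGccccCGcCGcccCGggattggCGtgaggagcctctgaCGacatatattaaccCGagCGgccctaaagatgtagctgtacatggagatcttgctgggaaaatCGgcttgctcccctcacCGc
Nanog, chr6:122707239-122707538, plus strand, 4 CpG: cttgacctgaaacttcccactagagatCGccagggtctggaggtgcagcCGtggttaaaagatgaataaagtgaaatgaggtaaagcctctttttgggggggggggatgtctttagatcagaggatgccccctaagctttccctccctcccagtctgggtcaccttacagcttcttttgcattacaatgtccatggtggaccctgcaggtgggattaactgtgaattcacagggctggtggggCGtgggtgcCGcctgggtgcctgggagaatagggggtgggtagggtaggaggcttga

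Over whole loci the 41 factors had low levels of H3K4me3, H3K27ac and Pol2S2P, with a few exceptions, while CTCF lay close to the level of other genes. The median over the 41 loci was 0.633 times the genome mean for H3K4me3 in 10000 cells, against 1.52 for all protein-coding genes. It was 0.522 against 1.17 for H3K27ac and 0.692 against 1.43 for Pol2S2P, both in 1000 cells. For CTCF in 10000 cells it was 1.37 against 1.49. Above the genome mean stood 12 members in H3K4me3 (29.3%, against 60.3% of all genes), 8 in H3K27ac (19.5% against 56.7%), 11 in Pol2S2P (26.8% against 63.3%) and 25 in CTCF (61.0% against 68.2%). As a like comparison, 55 genes of the same factor families had medians of 1.03 for H3K4me3, 1.57 for CTCF, 0.763 for H3K27ac and 0.884 for Pol2S2P. The 12 muscle factors had medians of 2.05, 1.76, 2.08 and 1.95 for the same 4 targets.

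**Figure D1:**
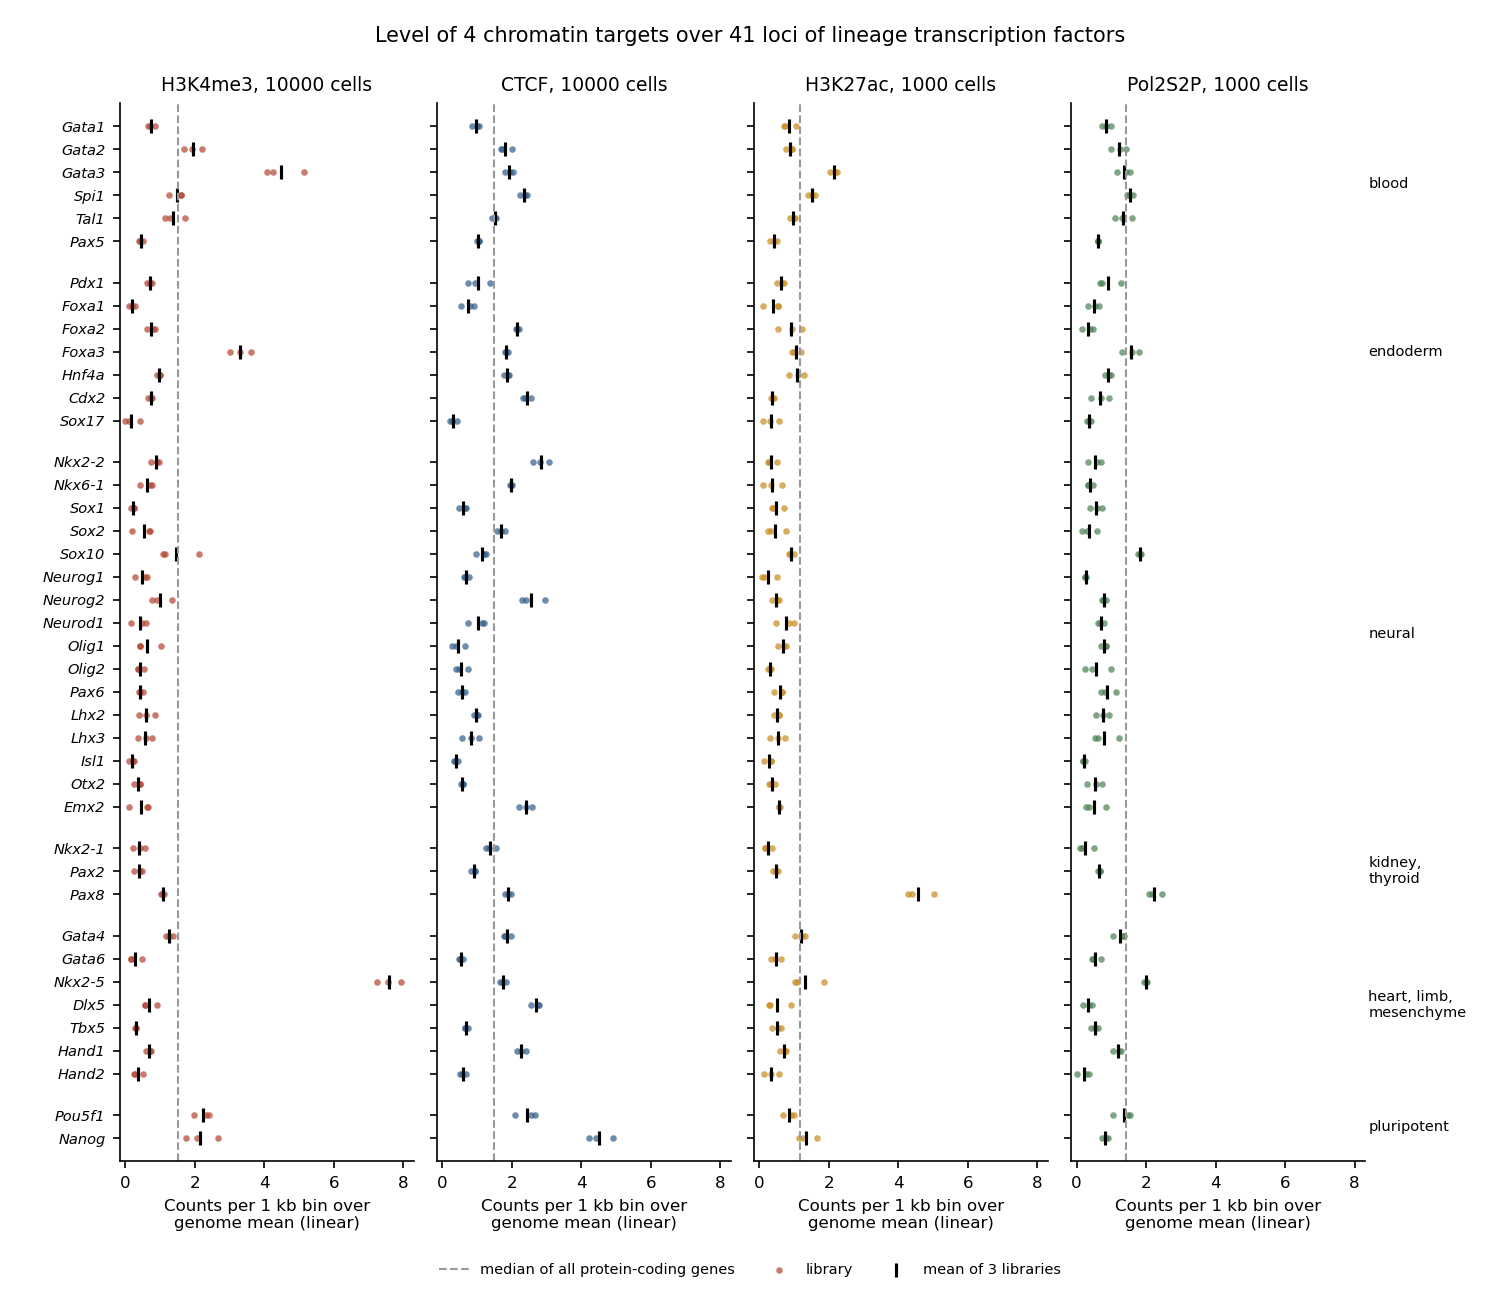
Level of each target over the 41 loci (x axis, counts per 1 kb bin over the genome mean, linear), in H3K4me3 and CTCF libraries of 10000 cells and H3K27ac and Pol2S2P libraries of 1000 cells. Points are libraries (n = 3), black bars their means and dashed lines the median of all protein-coding genes; most members lie left of that line except in CTCF, and Nkx2-5, Gata3 and Foxa3 stand out in H3K4me3 and Pax8 in H3K27ac.

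Among the lineage groups the blood and the pluripotent factors had the highest medians in H3K4me3, H3K27ac and Pol2S2P. The median level of the 16 neural factors was 0.513 for H3K4me3, 0.894 for CTCF, 0.481 for H3K27ac and 0.562 for Pol2S2P, and 0 of the 16 were above the genome mean in H3K27ac. The 7 heart, limb and mesenchyme factors had medians of 0.686, 1.74, 0.510 and 0.542 in the same order, and the 7 endoderm factors 0.729, 1.84, 0.617 and 0.684. The 6 blood factors had medians of 1.44 for H3K4me3, 1.65 for CTCF, 0.926 for H3K27ac and 1.28 for Pol2S2P. The 3 kidney and thyroid factors had 0.405, 1.37, 0.470 and 0.648, with Pax8 far above the other 2 in H3K27ac. The 2 pluripotent factors, Pou5f1 and Nanog, had medians of 2.20, 3.48, 1.10 and 1.10, and of 1.59, 3.21, 0.963 and 0.930 without shared bins, since 5 of the 15 Pou5f1 bins are shared with Tcf19.

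Nkx2-5, the homeobox factor of the early heart (chr17:26838664-26844988), had the highest H3K4me3 level of the 41 loci. Its level was 7.94, 7.26 and 7.57 times the genome mean in 10000 cells and 3.86, 4.66 and 5.55 in 1000 cells. All 6 libraries stood above the all-gene median. Gata3, a zinc-finger factor of T cells and of the trophoblast (chr2:9857078-9887953), had H3K4me3 levels of 4.08, 4.26 and 5.14 in 10000 cells and 2.85, 3.90 and 3.35 in 1000 cells. Gata3 was also second in H3K27ac, at 2.19, 2.04 and 2.23 in 1000 cells and 1.77, 2.67 and 2.16 in 100 cells. Foxa3, a forkhead factor of liver and gut (chr7:19013283-19023539), came after them in H3K4me3 at 3.01, 3.3 and 3.63, but 6 of its 21 bins are shared with Sympk. Pou5f1 averaged 2.24 ± 0.229 and Nanog 2.16 ± 0.470 in H3K4me3 (SD, n = 3 each), and Pou5f1 averaged 1.01 without the bins it shares with Tcf19.

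The lowest H3K4me3 levels were those of Isl1, a LIM-homeobox factor of motor neurons, Foxa1, a forkhead factor of endoderm, and Sox17, which specifies definitive endoderm. Isl1 had 0.242, 0.116 and 0.237 times the genome mean in 10000 cells, Foxa1 0.196, 0.281 and 0.0956, and Sox17 0.413, 0 and 0.101. Isl1 was also among the 3 lowest loci in every other target, with means of 0.385 ± 0.0479 in CTCF, 0.262 ± 0.125 in H3K27ac and 0.203 ± 0.0325 in Pol2S2P (SD, n = 3 each). Sox17 had the lowest CTCF mean, 0.307 ± 0.110, and Olig1, a factor of oligodendrocytes, had 0.447 ± 0.190 (SD, n = 3). In H3K27ac the lowest means were those of Nkx2-1, a factor of lung and thyroid, at 0.233 ± 0.116, and Neurog1, a proneural factor, at 0.241 ± 0.241 (SD, n = 3). Hand2, a factor of heart and limb, had 0.258, 0.357 and 0 in Pol2S2P.

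Pax8, the paired-box factor of thyroid and kidney (chr2:24420551-24475599, minus strand), had the highest H3K27ac and Pol2S2P levels. Its H3K27ac level was 4.28, 5.02 and 4.39 times the genome mean in 1000 cells and 5.27, 4.30 and 4.71 in 100 cells. Its Pol2S2P level was 2.18, 2.45 and 2.07 in 1000 cells, 1.97, 2.02 and 2.19 in 100 cells and 1.57 and 1.98 in the single staining. In the dual staining of 1000 cells every one of these values lay above the all-gene median of its group. The values of 100 cells and of the single staining are not set against medians of their own groups here. The H3K4me3 level of Pax8 was 1.04, 1.05 and 1.13 in 10000 cells, near the genome mean. Spi1, the ETS factor of myeloid cells, followed Gata3 in H3K27ac at 1.51, 1.40 and 1.61, and 5 of its 45 bins are shared with Mybpc3. Sox10, the neural crest factor, had 1.84, 1.83 and 1.78 in Pol2S2P, next after Pax8 and after Nkx2-5 at 2.00, 1.94 and 2.02, and shares 4 of its 20 bins with Polr2f.

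CTCF had a different order of loci. Nanog, the homeobox factor of pluripotent cells (chr6:122707489-122714633), was highest at 4.90, 4.41 and 4.22 times the genome mean in 10000 cells. It was followed by Nkx2-2, a factor of ventral neural progenitors, at 3.07, 2.61 and 2.80, and by Dlx5, a factor of bone and craniofacial mesenchyme, at 2.76, 2.54 and 2.79. Neurog2, a proneural factor, had 2.96, 2.29 and 2.40, and Pou5f1, which encodes Oct4, had 2.09, 2.68 and 2.54. All 3 libraries of each of these genes were above the all-gene median. Across the 41 loci, Spearman's rho between mean levels was 0.832 for H3K27ac and Pol2S2P, 0.760 for H3K4me3 and H3K27ac and 0.716 for H3K4me3 and CTCF. It was 0.434 for CTCF and H3K27ac and 0.301 for CTCF and Pol2S2P. Over all 21631 genes the last 2 values were 0.805 and 0.766. The points of these correlations share libraries and neighbouring sequence, and the values are descriptions.

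At the starts themselves, most members with CpG-rich starts were low in the H3K4me3 that most such genes carry. The RefSeq promoter table held 32 of the 41 members, with no entry for Sox17, Spi1, Tbx5, Dlx5, Hand1, Gata4, Sox10, Olig1 and Gata6. Where the table lists several starts, the CpG ratio is that of the first listed, while the level is over the bins within 1 kb of any of them. A ratio of observed to expected CpG of at least 0.6 in the 300 bases of the first listed start was found in 19 of the 32 (59.4%), against 48.9% of all coding genes in the table. Within 1 kb of CpG-rich starts the median H3K4me3 level was 0.296 times the genome mean over the 19 members, against 17.1 over 8447 coding genes. It was under the genome mean in 16 of the 19 (84.2%), against 14.3% of those genes. Taking any listed start at that ratio, a choice made after seeing the data, adds Foxa2, Pax2, Lhx3 and Otx2 and gives 23 of the 32 (71.9%, against 51.5% of coding genes), a median of 0.296 against 16.7, and 19 of the 23 under the genome mean (82.6%, against 14.7%). The 19 members with a CpG-rich first start were low in the other targets: the median was 0.646 against 4.34 in CTCF, 0.330 against 2.69 in H3K27ac and 0.429 against 2.69 in Pol2S2P.

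Isl1 and Hand2 are examples. The 37 CpG of the Isl1 start gave an observed to expected ratio of 1.05, and the H3K4me3 level within 1 kb was 0, 0 and 0.605 in the 3 libraries of 10000 cells, which together held 1 count there. Hand2, with 17 CpG and a ratio of 0.897, had 0 counts in all 3 libraries, which allows a level of up to 0.544 over the group (3 counts, counting error only). The starts of Nkx6-1, Foxa1, Cdx2, Sox1, Neurog1 and Pax8 also held 0 H3K4me3 counts in 10000 cells, with the same limit. At this depth a level under that limit was not detectable.

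The exceptions had H3K4me3 at their starts in every library. Gata3, with 22 CpG and a ratio of 0.658, had 42.1, 36.5 and 44.8 times the genome mean within 1 kb of its start. Nkx2-5 had 35.9, 33.3 and 33.3 although its start holds 9 CpG at a ratio of 0.466. Foxa3 had 4.33, 8.45 and 8.47 and Gata2, a factor of blood stem cells, 2.60, 3.73 and 4.72. Gata3 and Foxa3 were the 2 CpG-rich members above 5 times the genome mean, against 76.9% of CpG-rich coding genes. Of the 3 bins at the Foxa3 start, the 1 shared with Sympk had a mean of 16.9 and the others 1.67 and 2.72, so Foxa3 is above 5 times through the shared bin. Nanog, whose start holds 4 CpG, had 1.86, 1.33 and 2.72. The 13 members whose first listed start is under the ratio of 0.6 had a median of 0.527, against 0.605 for such coding genes, and the 9 members with every listed start under it had 1.02, against 0.556. Across genes, Spearman's rho between the CpG ratio of the first listed start and the H3K4me3 level was -0.393 over 32 members and 0.633 over all coding genes of the table, as a description over genes that share the libraries.

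**Figure D2:**
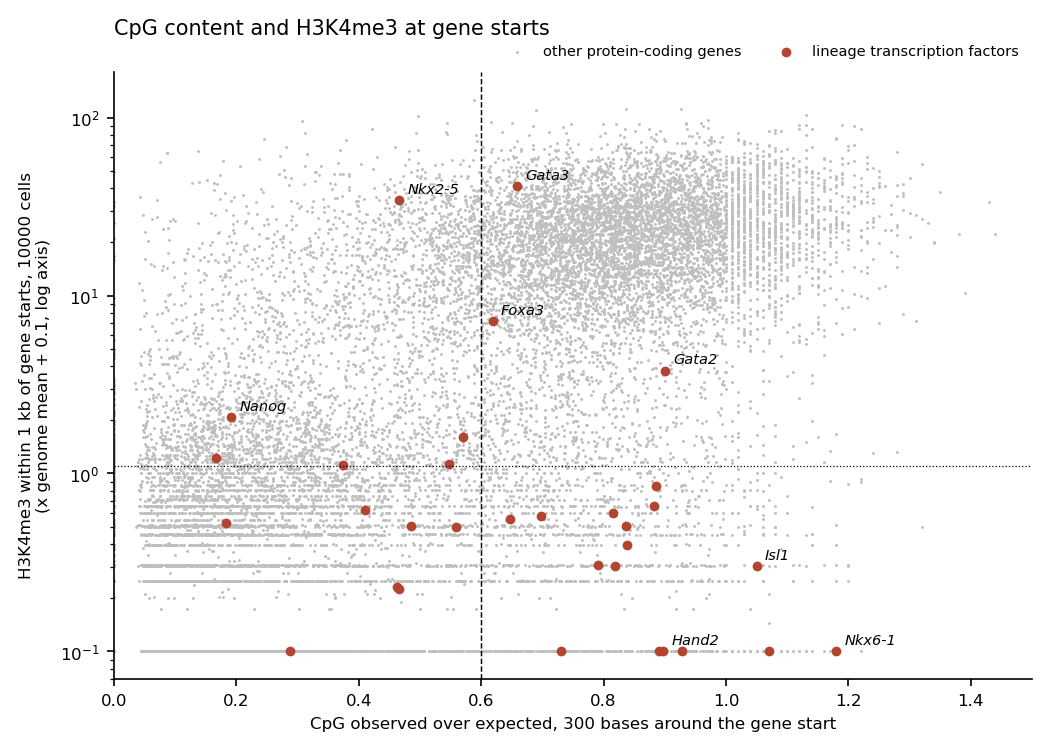
CpG ratio of the 300 bases around the first listed start of each gene (x axis) against the H3K4me3 level within 1 kb of the starts in 10000 cells (y axis, times the genome mean plus 0.1, log scale), for protein-coding genes (grey) and 32 of the 41 factors (red). The dashed line marks the ratio of 0.6 and the dotted line the genome mean; to the right of 0.6 most grey points lie above 5 times the genome mean, whereas 16 of 19 red points lie under the genome mean.

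Strong bins were few. A bin was called marked at 10 times the genome mean or more over the pooled libraries with a count in each of the 3. H3K4me3 in 10000 cells had 11 marked bins in 4 members (9.76%, against 52.7% of all genes). Nkx2-5 had 3 adjoining bins at chr17:26839896-26842895, with levels of 37.5, 53.8 and 10.9 along the chromosome. Gata3 had 4 at chr2:9875961-9879960, with 10.9, 29.9, 52.7 and 39.2, and in each gene the highest bin held the start whose sequence is given above. Gata4, a zinc-finger factor of the heart, had 2 at chr14:63243746-63245745, inside its span. The 2 marked bins counted for Foxa3, at chr7:19023926-19025925, lie upstream of its span and overlap Sympk. Without shared bins, 3 members and 9 bins remained. The count of members rests on the libraries used, since it was 7 without H3K4me3 replicate 1 and 7 without replicate 2.

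H3K27ac had 3 marked bins, all inside Pax8 (2.44% of members against 13.7% of all genes), and Pol2S2P had none (0 of 41, against 9.61% of all genes). The Pax8 bins begin at positions 24439906, 24446906 and 24452906 of chromosome 2, with levels of 12.2, 10.5 and 13.9, and lie 35.2, 28.2 and 22.2 kb inside the gene from its start. They overlap the noncoding gene Gm13415. Within 1 kb of the Pax8 start itself the H3K27ac level was 0.279, 0.581 and 0.604. The profile of Pax8 along the gene shows the same levels bin by bin.

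CTCF had 17 marked bins in 12 members (29.3% against 42.9% of all genes). Nkx2-2 had the strongest, 41.2 at chr2:147177401-147178400 with 20.3 in the next bin, 8.5 and 7.5 kb into the gene from its start. Hnf4a, a nuclear receptor of liver, had 28.1 and 18.5 in bins that begin at positions 163531336 and 163534336 of chromosome 2, between its 2 listed starts, where Hnf4aos overlaps. Pax5, the B-cell paired-box factor, had 21.4 in a bin 133 kb inside its span. Nanog had 16.6 in a bin 12.4 kb downstream of its start and 10.3 in a bin 4.49 kb upstream of it. Marked CTCF bins also lay in or beside Gata4, Spi1, Dlx5, Emx2, Nkx6-1, Foxa2 and Cdx2, at 11.1 to 20.1, whereas those of Gata3, at 12.4 and 19.9, lay at its start. With the flanks left out, 6 members held a marked CTCF bin.

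H3K4me3 libraries also had counts in some of these CTCF bins. At the strongest Nkx2-2 bin H3K4me3 had 9.29, 9.33 and 10.9 in 10000 cells, against CTCF levels of 39.4, 41.2 and 43.4, while within 1 kb of the Nkx2-2 start the 3 libraries held 1 H3K4me3 count in all (a level of 0.206). At the stronger Hnf4a bin H3K4me3 had 7.43, 9.33 and 10.9, against 26.6, 26.6 and 31.7 in CTCF. Both targets were stained in the same cells, and H3K4me3 stained without CTCF was not analysed here, so the part of the second antibody was not tested.

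**Figure D3:**
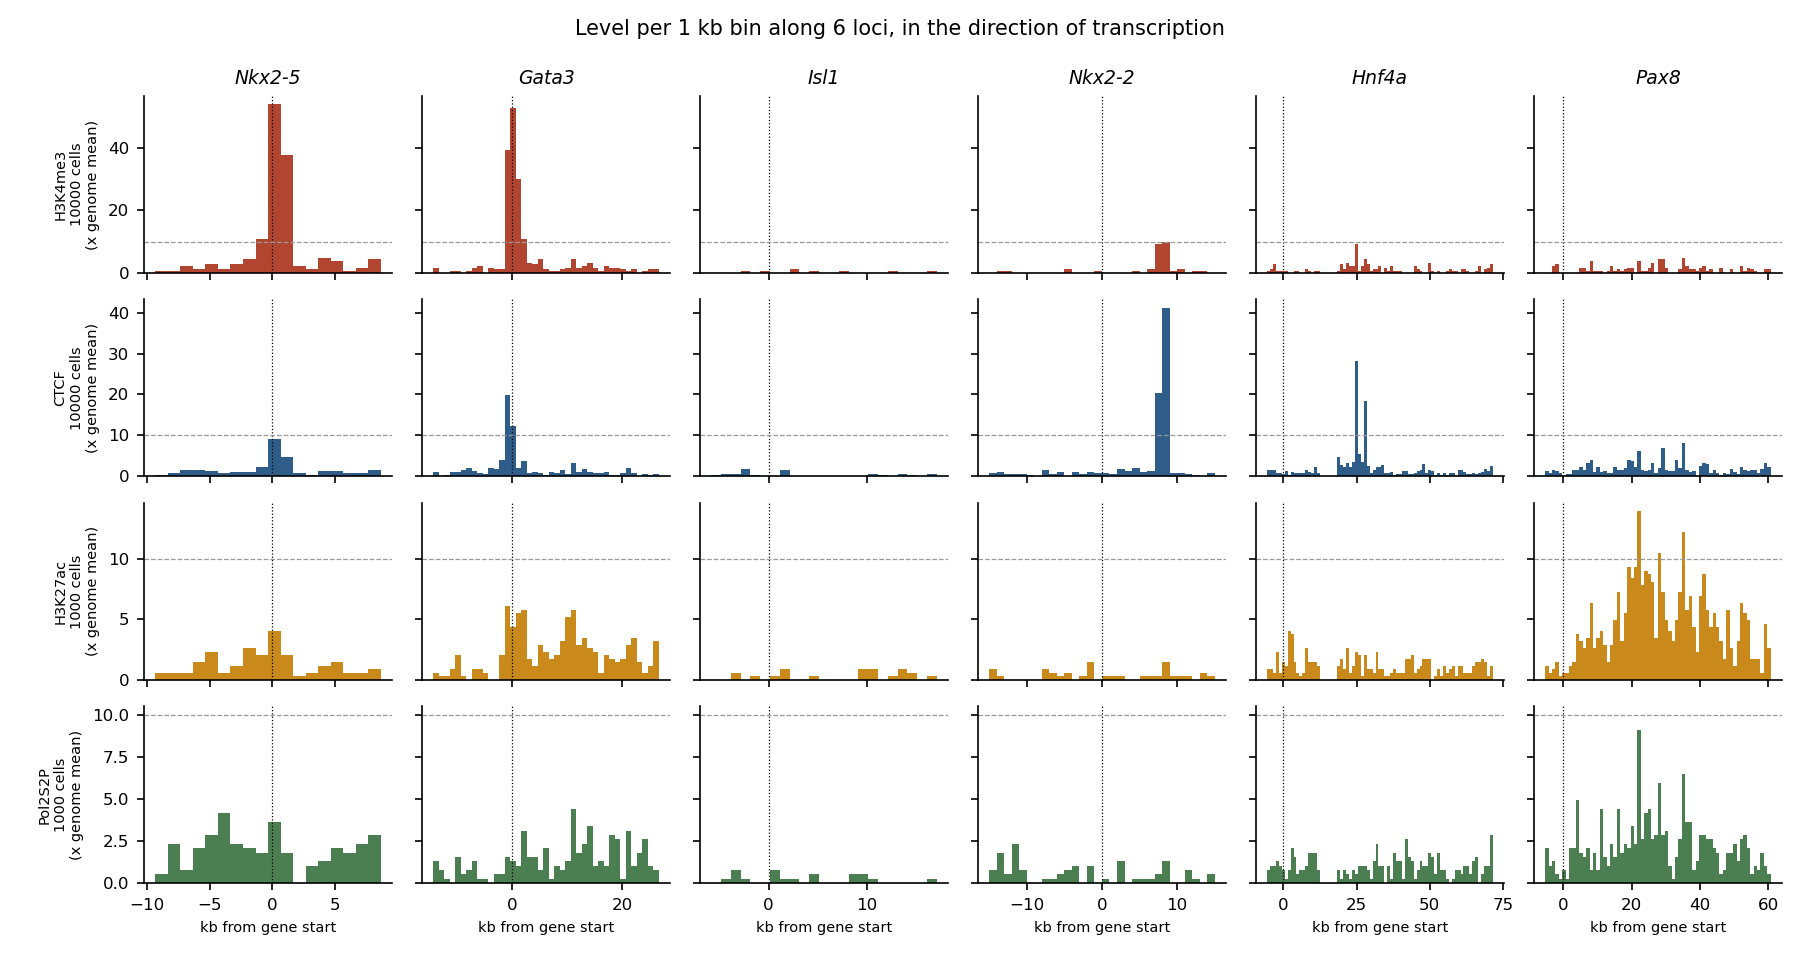
Levels along 6 loci in the direction of transcription (x axis, kb from the gene start, the first listed where there are several; y axis, times the genome mean per 1 kb bin, linear, 1 scale per target), pooled over 3 libraries. H3K4me3 peaks at the starts of Nkx2-5 and Gata3, CTCF inside Nkx2-2 and Hnf4a, H3K27ac and Pol2S2P spread over the interior of Pax8, and Isl1 is near 0 throughout; the dashed line marks 10 times the genome mean, and the blank stretch of Hnf4a held 0 counts in these 4 groups.

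The comparison of H3K4me3 with CTCF, both stained in the same 10000 cells, asks at which loci either target stands higher relative to its own genome mean. H3K4me3 was higher at 3 members and lower at 22. Of the 41 members 34 passed the count filter, and the values of the members that passed are given as counts, not as a property of all 41. Across all 18549 genes tested, 47.7% were higher and 30.6% lower (edgeR quasi-likelihood test, Benjamini-Hochberg adjusted p under 0.05). With no filter, 3 of 41 members were higher and 23 lower, against 41.5% and 27.7% of 21309 genes. The median log2 fold change was -0.89 over the 34 members and 0.22 over all genes. Of 55 family relatives 53 passed, with 16 higher and 23 lower and a median of -0.36, and of the 12 muscle factors 6 were higher and 4 lower with a median of 0.65. Under TMM scaling the median of all genes moved by -0.32, the share of higher calls among all calls from 61.0% to 48.5%, and 3 members were higher and 28 lower, against 39.3% and 41.8% of all genes.

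The 3 members higher in H3K4me3 were Nkx2-5, Gata3 and Foxa3. Nkx2-5 averaged 7.59 ± 0.343 times the genome mean in H3K4me3 and 1.74 in CTCF (n = 3 each), a log2 fold change of 2.11 ± 0.15 (SE, adjusted p = 1.18e-40, edgeR). Gata3 had 4.08, 4.26 and 5.14 in H3K4me3, against 1.95, 1.80 and 2.04 in CTCF, and a log2 fold change of 1.22 ± 0.11 (adjusted p = 6.3e-25, edgeR). In both genes all 3 H3K4me3 libraries exceeded all 3 CTCF libraries. Foxa3 had a log2 fold change of 0.85 ± 0.17 (adjusted p = 2.39e-06, edgeR), which was 0.08 with the bins shared with Sympk left out (adjusted p = 0.804) and -0.14 over the gene span without its flanks.

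The largest differences in the other direction were at Emx2, a homeobox factor of the dorsal forebrain, Dlx5, Foxa1 and Nkx2-1. Emx2 had 0.619, 0.667 and 0.101 in H3K4me3, against 2.21, 2.40 and 2.59 in CTCF, and a log2 fold change of -2.29 ± 0.31 (adjusted p = 3.82e-13, edgeR). Dlx5 had 0.580, 0.917 and 0.568 in H3K4me3, against 2.76, 2.54 and 2.79 in CTCF (-1.91 ± 0.28, adjusted p = 7.84e-11, edgeR). Foxa1 was at -1.84 ± 0.50 (adjusted p = 0.00043, edgeR) and Nkx2-1 at -1.75 ± 0.39 (adjusted p = 1.46e-05, edgeR). At these 4 loci every H3K4me3 library lay under every CTCF library. Foxa1 and Nkx2-1, with H3K4me3 means of 0.191 and 0.405, held few H3K4me3 counts. They passed the count filter through CTCF, which favours this direction. Of the 19 Foxa1 bins 9 are shared with Ttc6. The other 18 called members had log2 fold changes of -1.72 to -0.56, from Sox2 and Cdx2 to Gata4. Of these, Gata6 was not called without H3K4me3 replicate 1 or 3, Neurod1 without H3K4me3 replicate 2 and Lhx2 without H3K4me3 replicate 3. Among those that passed the filter without a call, Gata2 was at 0.12 ± 0.20 (0.82 on the span without flanks and 1.17 at gene starts, where it was called, with adjusted p = 0.00124 and 0.00111, edgeR), Sox10 at 0.30 ± 0.26 and Pou5f1 at -0.12 ± 0.22, and without the bins shared with Tcf19 Pou5f1 was at -0.89 ± 0.35 (adjusted p = 0.0177, edgeR). The 7 members under the filter were Sox1, Sox17, Neurog1, Olig1, Olig2, Isl1 and Hand2.

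Within the loci, 25 bins of 15 members had enough counts for a test in these libraries, mostly through the target in which they are high. H3K4me3 was higher in 8 bins of 4 members and lower in 16 bins of 12 members, against 53.9% and 29.4% of 44023 bins tested. In the Gata3 bin that begins at position 9876961, H3K4me3 had 29.7, 28.0 and 32.7 and CTCF 1.60, 2.51 and 1.94, a log2 fold change of 3.81 ± 0.38. In the bin of the Nkx2-5 start, H3K4me3 had 59.4, 52 and 50.8 and CTCF 9.04, 10.5 and 7.12 (2.56 ± 0.23), and in the bin beside it the fold change was 3.00 ± 0.30. The bin of the Gata3 start, the 2 Foxa3 bins and 1 bin of Gata4 were at 2.08, 1.89, 1.82 and 1.30. The Gata4 call was lost under TMM and DESeq2, and those of both Foxa3 bins, which are shared with Sympk, under DESeq2. Of the lower bins, that of Gata4 at position 63206746 had 0, 2.67 and 3.63 in H3K4me3 and 25.5, 14.6 and 20.7 in CTCF (-3.15 ± 0.50). Lower bins of Foxa2, Gata4, Pax5 and Dlx5 were at -2.78, -2.47, -2.46 and -2.37. The Nanog bin upstream of its start had 7.43, 6.67 and 16.3 in H3K4me3 and 7.98, 11.6 and 11.7 in CTCF, and was not called (-0.08 ± 0.39). Under TMM and by DESeq2 it was called lower in H3K4me3.

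In 1000 cells the same 3 members were higher and 17 of the 29 that passed the filter were lower, against 45.0% and 26.0% of 17292 genes. Nkx2-5 was at 1.45 ± 0.24 (adjusted p = 9.74e-09), Foxa3 at 1.44 ± 0.24 (adjusted p = 1.12e-08) and Gata3 at 1.01 ± 0.18 (adjusted p = 6.79e-08) by edgeR. The Foxa3 call in 1000 cells was lost on the span without flanks (0.63, adjusted p = 0.195). Neurog2 showed the largest difference in the other direction, with 0.261, 0.428 and 0.178 in H3K4me3, against 2.90, 3.00 and 2.58 in CTCF (-3.17 ± 0.51, adjusted p = 2.02e-09, edgeR). The H3K4me3 levels of Neurog2 rest on very few counts. Its locus passed the count filter through CTCF, which favours this direction. Dlx5 was at -2.83 ± 0.50, Nkx2-2 at -2.64 ± 0.34 and Emx2 at -1.91 ± 0.38. The calls of Tal1, Nkx6-1, Lhx2 and Hand1 in 1000 cells were lost without H3K4me3 replicate 2, those of Nkx6-1 and Hand1 also without H3K4me3 replicate 1, that of Hand1 without CTCF replicate 1 and that of Lhx2 without CTCF replicate 2. The median was -0.89 over the 29 members, against 0.25 over all genes, and under TMM, which moved the median of all genes by -0.32, 3 members were higher and 21 lower (36.0% and 37.1% of all genes), and higher calls made up 49.3% in place of 63.3% of all calls.

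Whether the difference between targets changed with cell number was tested as an interaction. No member passed (0 of 34 tested, against 0.0439% of 18233 genes by edgeR; 6 had an unadjusted p under 0.05, and 0 passed by DESeq2). The smallest p belonged to Neurog2, whose difference was 1.90 ± 0.67 higher on the log2 scale in 10000 than in 1000 cells (adjusted p = 0.33, edgeR). For Nkx2-5 the change was 0.66 ± 0.28 (adjusted p = 0.459) and for Foxa3 -0.60 (adjusted p = 0.577). These p-values do not show that the differences were alike at both cell numbers.

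**Figure D4:**
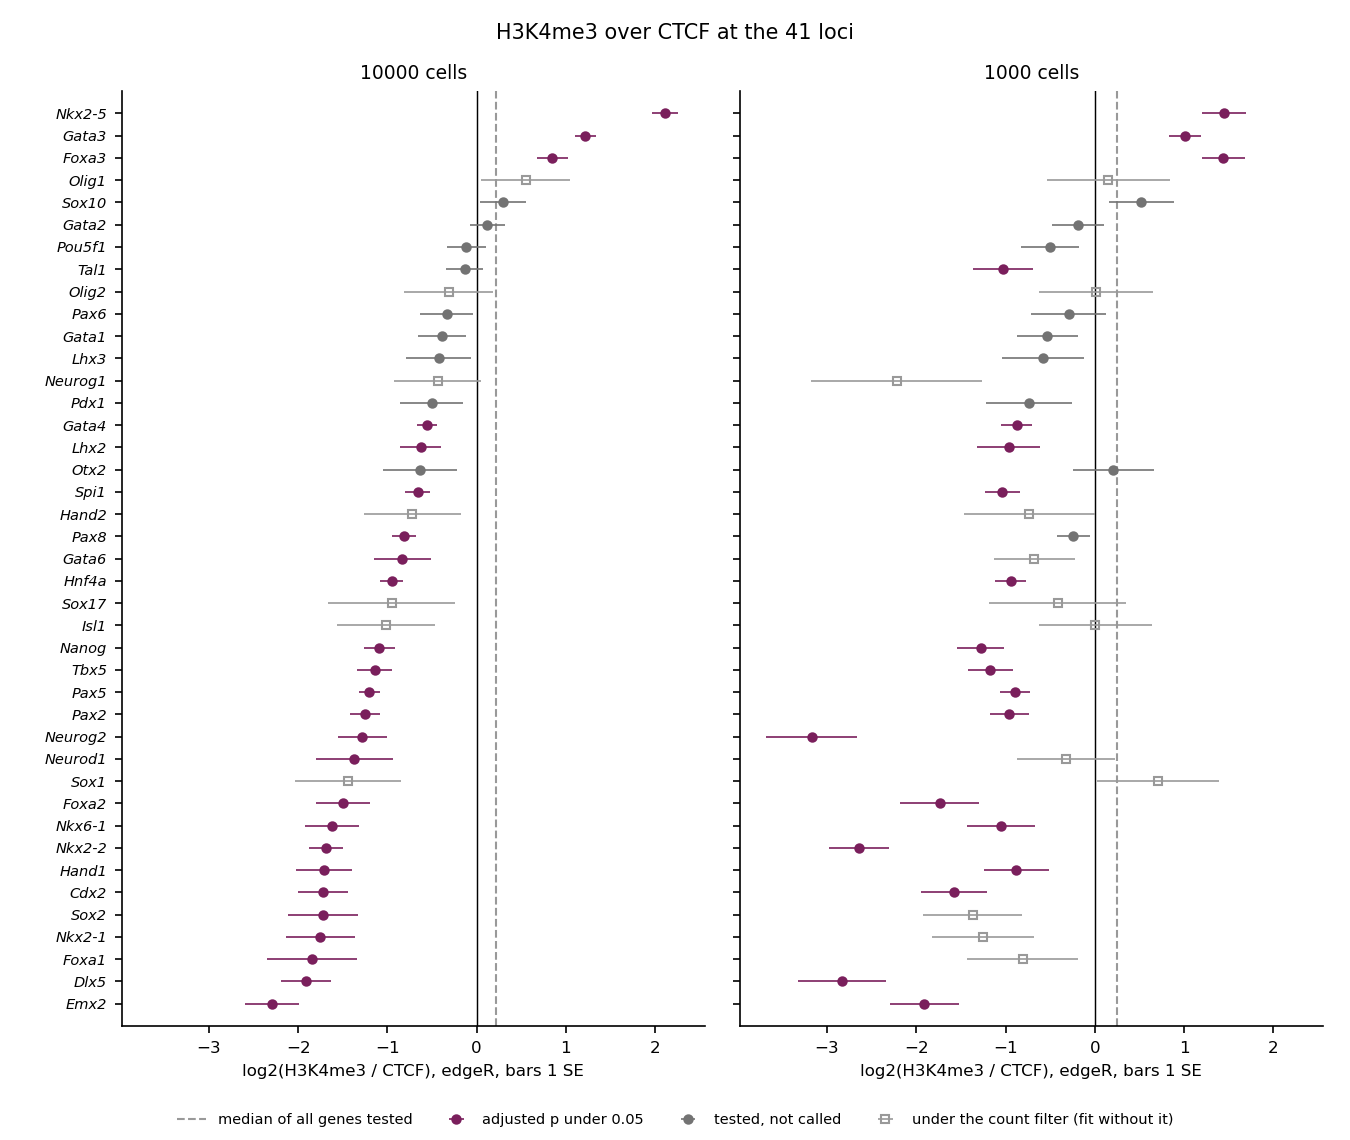
Log2 fold change of H3K4me3 over CTCF at each of the 41 loci (x axis, bars 1 SE) in 10000 cells (left) and 1000 cells (right), ordered by the left panel. Filled purple points passed an adjusted p of 0.05, grey circles were tested without passing, open squares fell under the count filter and come from the fit without it, and dashed lines are the medians of all genes tested; Nkx2-5, Gata3 and Foxa3 stand to the right of 0 in both panels.

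H3K27ac and Pol2S2P, stained in the same 1000 cells, were compared in the same way, with no replicate number in the model. H3K27ac was higher at 3 members, Pax8, Nanog and Gata3, and lower at 7, out of 30 that passed the filter, against 10.7% and 39.4% of 18463 genes. The median log2 fold change was -0.46 over these members and -0.29 over all genes. Among relatives 7 were higher and 9 lower of 48 that passed, and among muscle factors 6 were higher and 1 lower of 11. The lower calls depend on the scaling: under TMM the median of all genes moved by 0.30, higher calls made up 52.4% in place of 21.4% of all calls, and 4 members were higher and 1 lower, against 21.3% and 19.4% of all genes. DESeq2 called 4 members higher and 0 lower, against 16.5% and 14.5%.

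Pax8 had 4.28, 5.02 and 4.39 times the genome mean in H3K27ac, against 2.18, 2.45 and 2.07 in Pol2S2P, a log2 fold change of 1.03 ± 0.09 (adjusted p = 9.5e-27, edgeR). Gata3 had 2.19, 2.04 and 2.23 in H3K27ac, against 1.16, 1.54 and 1.41 in Pol2S2P (0.66 ± 0.15, adjusted p = 7.09e-05, edgeR). Nanog had 1.15, 1.65 and 1.24 in H3K27ac, against 0.836, 0.745 and 0.915 in Pol2S2P (0.69 ± 0.28, adjusted p = 0.0321, edgeR), a call that was lost without H3K27ac replicate 2, Pol2S2P replicate 1 or Pol2S2P replicate 2. On the span of Nanog without flanks the log2 fold change was 0.07 (adjusted p = 0.904). In all 3 genes the H3K27ac libraries lay above every Pol2S2P library. Of the 3 Pax8 bins with enough counts for a test, 1 was higher in H3K27ac, with 11.7, 11.3 and 13.6, against 5.78, 8.33 and 5.54 in Pol2S2P (0.90 ± 0.37, adjusted p = 0.0346, edgeR), where 55.9% of 18663 bins were higher and 9.59% lower. The called bin had enough counts through H3K27ac, the target in which it is high, which favours this direction. That bin was called in 2 of 10 alternatives, the call being lost under TMM, by DESeq2, with a minimum of 5 counts and when any library but Pol2S2P replicate 2 was left out.

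Sox10 was the member furthest to the Pol2S2P side, with 1.01, 0.872 and 0.860 in H3K27ac, against 1.84, 1.83 and 1.78 in Pol2S2P (-0.99 ± 0.25, adjusted p = 0.000262, edgeR). It was the 1 lower call that TMM also gave, at -0.69 (adjusted p = 0.0166), and DESeq2 did not call it. Nkx2-5 and Pax6, a factor of eye and brain, were each at -0.60, with SE 0.23 and 0.24 (adjusted p = 0.0227 and 0.0257, edgeR). Pax5 and Foxa3 were at -0.57, Lhx2 at -0.56 and Pax2, a kidney factor, at -0.46. None of these 6 was called under TMM or DESeq2. Leaving out 1 library ended the calls of Nkx2-5 (H3K27ac replicate 1 or 2, Pol2S2P replicate 1 or 3), Pax6 (H3K27ac replicate 3, Pol2S2P replicate 2) and Foxa3 (H3K27ac replicate 2 or 3, Pol2S2P replicate 1 or 2). It likewise ended those of Pax2 (H3K27ac replicate 2) and Lhx2 (every library but Pol2S2P replicate 3). With the replicate number as a block 9 members were lower, the added ones being Hand1 at -0.75 (adjusted p = 0.0437) and Pou5f1 at -0.67 (adjusted p = 0.0491) by edgeR.

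In 100 cells, where 17 members passed the filter, Pax8, Nanog and Gata3 were again higher in H3K27ac and Sox10 and Tal1 lower, against 8.58% and 27.8% of 15797 genes. Pax8 had 5.27, 4.30 and 4.71 in H3K27ac, against 1.97, 2.02 and 2.19 in Pol2S2P (1.21 ± 0.15, adjusted p = 8.37e-10, edgeR). Gata3 was at 0.97 ± 0.27 (adjusted p = 0.00242) and Nanog at 1.16 ± 0.43 (adjusted p = 0.0267) by edgeR. The Nanog call was lost without H3K27ac replicate 1 or 3 or Pol2S2P replicate 2. Sox10 had 1.11, 0.506 and 0.341 in H3K27ac, against 2.92, 1.75 and 1.47 in Pol2S2P (-1.62 ± 0.44, adjusted p = 0.00216, edgeR), and the call was lost by DESeq2 and without Pol2S2P replicate 1. Tal1, a factor of early blood, had 0.973, 0.6 and 0.505 in H3K27ac, against 1.48, 2.29 and 0.932 in Pol2S2P (-1.18 ± 0.40, adjusted p = 0.0159, edgeR); these groups overlap, and the call was lost under TMM, by DESeq2 and without H3K27ac replicate 2 or 3 or Pol2S2P replicate 2. Under TMM, which moved the median of all genes by 0.30 and the share of higher calls from 23.6% to 56.5%, 3 members were higher and 1 lower, against 15.8% and 12.1% of all genes. The interaction with cell number called 0 of 27 members (0.0% of 18319 genes by edgeR, 0 by DESeq2; 2 members had an unadjusted p under 0.05).

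**Figure D5:**
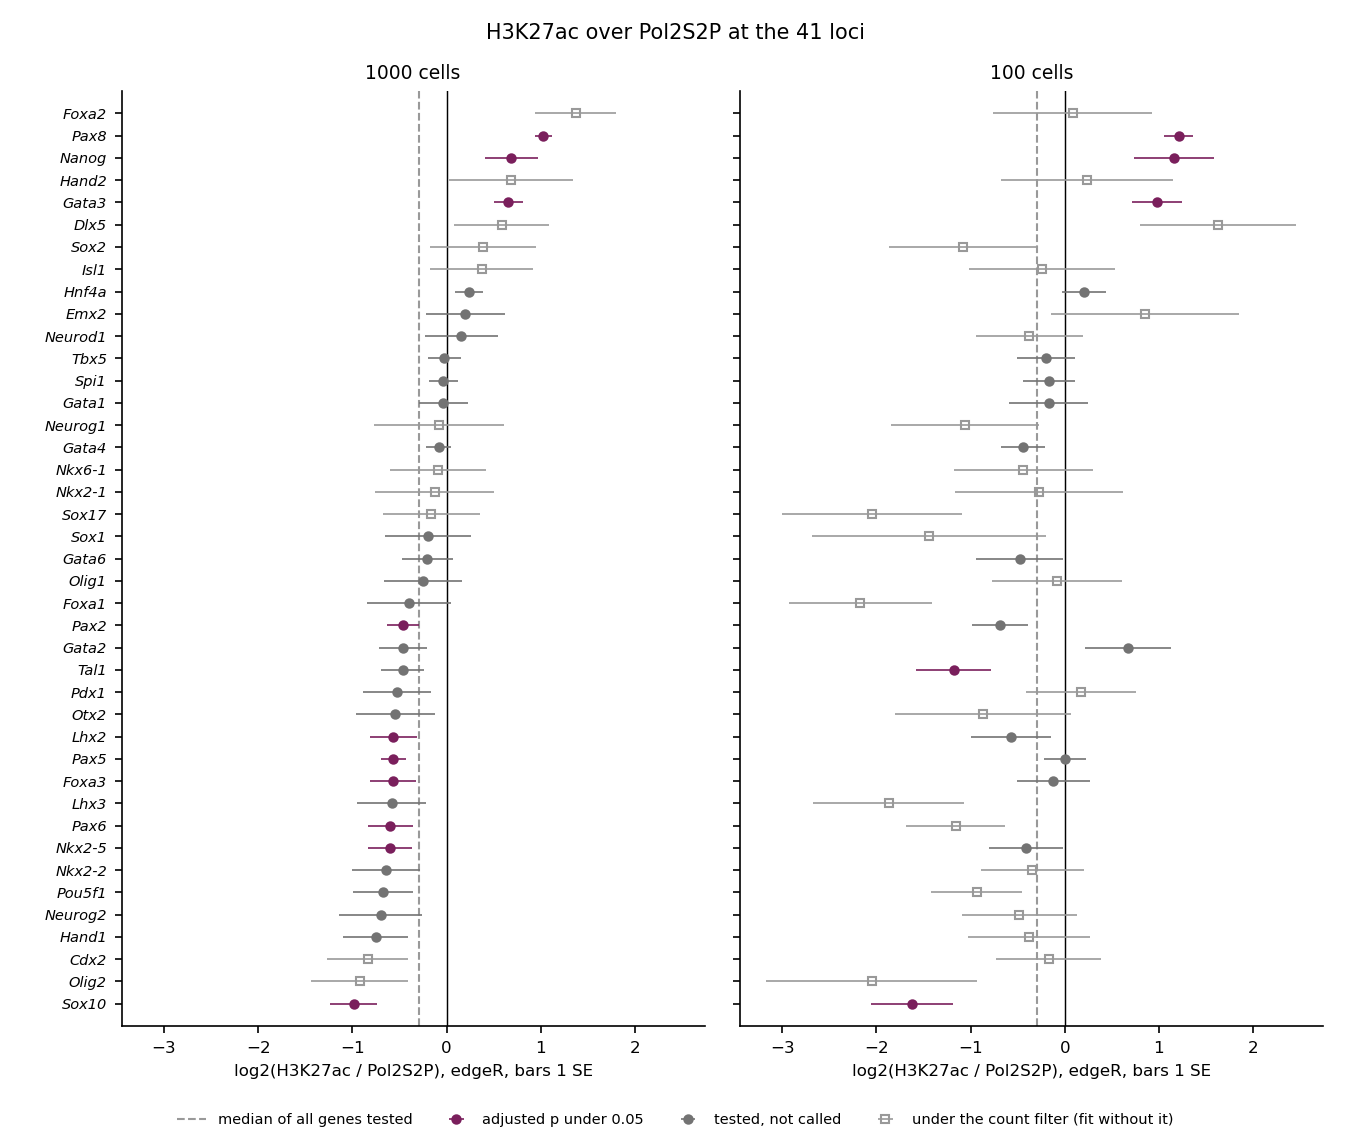
Log2 fold change of H3K27ac over Pol2S2P at each of the 41 loci (x axis, bars 1 SE) in 1000 cells (left) and 100 cells (right), ordered by the left panel. Symbols are filled purple for an adjusted p under 0.05, grey circles for tested without passing and open squares for loci under the count filter; Pax8, Nanog and Gata3 stand to the right of 0 in both panels and Sox10 to the left.

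Few of the members tested were called between cell numbers, and 18 to 39 of the 41 passed the filter. For H3K4me3, 10000 against 1000 cells, 1 of 18 members that passed the filter was called, against 2.2% of 15864 genes. This was Nkx2-5, at 7.94, 7.26 and 7.57 in 10000 cells, against 3.86, 4.66 and 5.55 in 1000 cells (0.66 ± 0.18, adjusted p = 0.0256, edgeR). The groups do not overlap, but the call was lost under TMM and when any library but H3K4me3 replicate 3 of 1000 cells was left out, and DESeq2 called 0 members. For CTCF, 10000 against 1000 cells, 0 of 39 members were called by edgeR (0.157% of 19104 genes) and 0 by DESeq2, with 2 at an unadjusted p under 0.05. For H3K27ac, 1000 against 100 cells, 0 of 20 were called (0.0% of 17160 genes; 0 by DESeq2), with 2 at an unadjusted p under 0.05, and for Pol2S2P 0 of 27 (0.0112% of 17901 genes; 0 by DESeq2), with 1. The nearest were Pax5 for CTCF at 0.24 ± 0.09 (adjusted p = 0.239), Pax6 for H3K27ac at 1.13 ± 0.44 (adjusted p = 0.615) and Gata2 for Pol2S2P at 0.79 ± 0.35 (adjusted p = 0.691), all by edgeR.

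Staining together with a second antibody was compared with staining alone. For CTCF in 10000 cells all 41 members passed the filter and 0 were called, by edgeR (0.995% of 19791 genes) or by DESeq2, with 6 at an unadjusted p under 0.05. Their log2 fold changes ran from -0.76 at Olig1 to 0.49 at Pax6, and the smallest p was that of Gata3 (0.29 ± 0.12, adjusted p = 0.238, edgeR). At Nkx2-2, CTCF had 3.07, 2.61 and 2.80 in the dual staining and 2.53 and 2.74 in the single staining. At Nanog it had 4.90, 4.41 and 4.22 in the dual and 4.59 and 4.35 in the single staining.

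For Pol2S2P in 1000 cells, 2 members were higher and 3 lower in the dual staining, out of 32 that passed, against 10.7% and 37.5% of 18776 genes. Pax2 had 0.666, 0.663 and 0.614 in the dual and 0.326 and 0.461 in the single staining (0.75 ± 0.21, adjusted p = 0.00113, edgeR), and Pax8 2.18, 2.45 and 2.07 against 1.57 and 1.98 (0.35 ± 0.13, adjusted p = 0.0199, edgeR). Both calls were lost without single replicate 1 (adjusted p = 0.14 for Pax2 and 0.479 for Pax8), and that of Pax8 also without dual replicate 2. Sox10 had 1.84, 1.83 and 1.78 in the dual, against 3.58 and 3.02 in the single staining (-0.87 ± 0.21, adjusted p = 0.000163, edgeR), and DESeq2 did not call it (-0.65, adjusted p = 0.082). Pou5f1 had 1.54, 1.05 and 1.48 against 2.63 and 2.16 (-0.83 ± 0.28, adjusted p = 0.0085, edgeR), and without the bins shared with Tcf19 it was at -0.18 (adjusted p = 0.774). The Pou5f1 call was also lost under TMM, by DESeq2, on the span without flanks, at gene starts and without single replicate 1. Foxa3 had 1.58, 1.78 and 1.32 against 2.84 and 1.90 (-0.64 ± 0.23, adjusted p = 0.0139, edgeR), and the call was lost under TMM, by DESeq2, on the span without flanks and without Pol2S2P dual replicate 3 or single replicate 1. In each of the 5 genes the groups do not overlap. Without shared bins Sox10 (-0.93) and Foxa3 (-0.74) were still called lower. At gene starts, Gata3 (-2.01, adjusted p = 0.000244), Gata2 (-1.72, adjusted p = 0.012) and Nkx2-5 (-1.68, adjusted p = 8.89e-05) were called lower in the dual staining by edgeR. None of these was called over its whole locus. The share of all genes called lower at gene starts is not given here, so these calls do not set the named genes apart from other genes. Under TMM the median of all genes moved by 0.22, higher calls made up 50.3% in place of 22.2% of all calls, and 5 members were higher and 1 lower, against 18.4% and 18.1% of all genes. Of relatives that passed, 4 were higher and 18 lower, and of muscle factors 2 and 6.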

How the data were processed

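The deposited values are raw, unscaled counts in 1 kb bins, per the file headers and the values themselves. Per the submitters' processing notes, bcl2fastq, HISAT2 2.1.0, deepTools 3.3.1 and GRCm38 were used, and the treatment of duplicate and multiply mapped reads is not stated in the sources used here. Of 34 samples 28 matched a column by name, the other 6 (a primary-antibody version at 100 cells) were not analysed here, and 4 columns that matched no sample were not used. Of 2728634 bins, 2631639 lie on the autosomes and X, and 9 whose density exceeded 50 genome means in all 10 groups were left out. The remaining totals, 719766 to 6653298 per library, served as library sizes. Floors cover counting error only. A floor is the level that 3 counts over a group would give.

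Gene spans came from a table of GRCm38.p6 coordinates, and starts, strands and sequences from the RefSeq promoter table of the same build, which holds 17274 of the genes. Counts summed over each gene span with 5 kb on either side, or per bin, were tested with edgeR 4.0.16 in R 4.3.3 (quasi-likelihood test, filterByExpr, no further scaling, only the groups compared) with Benjamini-Hochberg adjustment over all genes or bins and a threshold of 0.05, in 10 comparisons between groups and 2 interactions. The procedure was tested on simulated data. Alternatives were TMM scaling, DESeq2 1.42.0, no count filter, the span without flanks, gene starts, unshared bins, a replicate block and leaving out each library. Python 3.11.15 with pandas 2.3.3, numpy 2.4.6, scipy 1.17.1 and matplotlib 3.10.9 made tables and plots.

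The titles number the replicates 1 to 3 in every dual group. Deviations of same-numbered H3K27ac and Pol2S2P libraries from their group means correlated at 0.114 to 0.134 in 1000 cells and 0.109 to 0.116 in 100 cells across genes. These values are over the limit of 0.1, so these numbers were taken to pair the libraries. The main tests nevertheless ignored this pairing, and the fits with the replicate block, which use it, are given as alternatives. For H3K4me3 and CTCF they correlated at 0.0291 to 0.0825, under that limit, which does not show that the libraries are unpaired. The titles give both targets of a dual staining the same replicate number without stating that they came from the same wells.

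The members, lists and tests were chosen with earlier results of these data known. Named with values are, per target in its deepest group, the 5 highest and 3 lowest members, in comparisons between targets the 4 largest changes in each direction among those called, in other comparisons the called members up to 6, and in bin tests the 5 largest in each direction. Members outside this rule, such as Isl1 and Hand2 at their starts, were named after their values were seen.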

Additional observations from a re-analysis of the deposited data

How the results depend on the processing

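Of the counts of members or bins recomputed under alternatives, 219 stayed within 1.5 times the reported count and 43 did not. Of the log2 fold changes of called members, 688 kept direction and call, 89 kept the direction only and 3 turned round. Of the counts of members with a marked bin or a low CpG-rich start, 18 stayed within 1.5 times and 11 did not. The fold of Foxa3 for H3K4me3 over CTCF in 10000 cells was -0.14 on the span without flanks, and for H3K27ac over Pol2S2P in 1000 cells Foxa3 was at 0.11 on the span without flanks and Nkx2-5 at 0.16 at gene starts. In each of these settings fewer bins entered the sums.

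The counts in this section are given without the share of all genes or bins called in the same setting, apart from shares stated above. They show how far a count moved with the setting, and not how the members stand to other genes. Members lower in H3K4me3 than in CTCF numbered 14 (10000 cells) and 10 (1000 cells) on the span without flanks and 3 and 2 at gene starts, where fewer members pass the filter. Leaving out 1 library gave 20 to 22 and 13 to 17, with 3 higher each time. Members higher in H3K27ac than in Pol2S2P numbered 1 (1000 cells) and 0 (100 cells) at gene starts, and 2 to 5 and 2 to 3 with 1 library left out. The 5 were found without H3K27ac replicate 3. Members lower in H3K27ac numbered 1 under TMM, 0 by DESeq2, 3 on the span without flanks, 1 at gene starts and 4 without shared bins in 1000 cells, and 3 to 6 with 1 library left out (3 without H3K27ac replicate 2, 4 without replicate 3). In 100 cells they numbered 1 under TMM, 0 by DESeq2, on the span without flanks and at gene starts, and 1 to 2 with 1 library left out. Members called between 10000 and 1000 cells for H3K4me3 numbered 0 under TMM and by DESeq2 and 0 to 1 with 1 library left out. For Pol2S2P in dual against single staining, DESeq2 called 2 members, and leaving out 1 library gave 2 to 6, with 2 without single-staining replicate 1. Bins higher in H3K4me3 numbered 6 under TMM, 4 by DESeq2, 13 with a minimum of 5 counts and 8 to 13 with 1 library left out, and lower bins 9 to 22. Bins higher in H3K27ac numbered 0 under TMM and by DESeq2, 2 with a minimum of 5 counts and 1 to 6 with 1 library left out, counts that include other bins than the 1 reported. Where the construction of the setting does not show it, the cause was not tested.

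Members with a marked bin numbered 11 in H3K4me3, 23 in CTCF, 3 in H3K27ac and 2 in Pol2S2P at 5 times the genome mean, and 2, 4 and 0 in the first 3 at 20 times. The shares of all genes with a marked bin at these thresholds are not given here, so these counts do not set the members against other genes. Without Pol2S2P replicate 3, 1 member had a marked Pol2S2P bin.

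With the replicate block, counts of called members were 3 higher and 22 lower for H3K4me3 against CTCF in 10000 cells, 3 and 17 in 1000 cells, 3 and 9 for H3K27ac against Pol2S2P in 1000 cells and 3 and 2 in 100 cells. They were 1 for H3K4me3 between cell numbers, 5 for Pol2S2P between stainings, and 0 in the other comparisons and both interactions, and bins were 8 higher and 16 lower, and 1 and 0. Foxa3 was not called under the block for Pol2S2P between stainings (adjusted p = 0.0819, edgeR), where numbers do not pair libraries. For H3K4me3 and CTCF each library also correlated best with its own number. The labels name the shared dual staining and number but do not state the pairing. Depth limits the loci: a marked H3K4me3 bin needs only 18.4 counts over 3 libraries, and 7 members fell under the count filter in 10000 cells.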
